A study of Caenorhabditis elegans with 12 samples.

Results

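Gonads dissected from XX Caenorhabditis elegans were compared with whole XX animals, 3 libraries against 3, to describe what a female germline and the somatic gonad dissected with it hold relative to the female body. These 6 libraries were chosen by their titles from the 12 of the series. The other 6 come from gonads and whole animals of XO karyotype, whose body is male. They enter the choice of genes tested, the scaling and the estimate of spread in the fit. With all 12 libraries 12528 genes were tested, and 10872 with the 6 XX libraries alone. Their own values are given only where stated. All animals, XX or XO, were fog-1(q253) mutants, an allele whose effect depends on temperature. They were kept at 25 °C and collected as young adults. The gene fog-1 is needed for germ cells to become sperm, and in this mutant at this temperature the germline of either karyotype makes oocytes, so the XX animals are females without sperm of their own. Each gonad sample pooled at least 200 dissected gonads, and each whole-worm sample at least 600 hand-picked animals. No animals with a wild-type fog-1 gene were analysed here. A whole worm contains its own gonad, so germline transcripts are present on both sides of the comparison. Nothing in the labels ties replicates to cultures of their own, and p-values therefore measure the spread between these samples, which may be technical.

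In the adult gonad, germ cells divide at the distal end of each arm, enter meiosis, and grow into oocytes as they move to the proximal end. Oocytes are loaded with messenger RNAs that RNA-binding proteins keep silent until they are needed, and they take up yolk that the intestine makes and secretes. Thin contractile sheath cells wrap the arm, and the spermatheca and uterus follow it. In germ cells of this species most genes on the X chromosome are kept at low activity.

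The XX gonad libraries held from 11911364 to 16026824 gene counts and the XX whole-worm libraries from 12765678 to 15363288. XX gonad replicate 1 stood apart. The chi-square of its counts per degree of freedom was 113 against replicate 2 and 155 against replicate 3, which differed from each other by 17.9, and the whole-worm pairs gave 4.8 to 10.3. Its median log2 deviation from the mean of replicates 2 and 3 was 0.25 for genes with under 1 kb of exon. It was -1.31 for genes over 4 kb, so that long germline genes read low in this library. Values without this library are given beside the counts and calls that it moved most. Reads that mapped to several places made up 4.99% to 8.72% of reads in XX gonads and 17.6% to 20.3% in XX whole worms, and such reads were not counted for any gene. The part of these differences in the results was not tested.

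Most genes of the body were far lower in gonads, while genes of the germline were higher by less than 2-fold in most cases. With edgeR's quasi-likelihood test and an adjusted p under 0.05, 3575 (28.5%) of 12528 tested genes were higher in gonads and 5318 (42.4%) were lower, 71% in all. The ranges of the groups did not overlap for 72.7% of tested genes. Only 238 (1.9%) were both called and at least 2-fold higher, against 4855 (38.8%) at least 2-fold lower. The higher genes had a median log2 fold change of 0.63, and 95% of them lay below 1.04. The lower genes had a median of -3.96. At least 64-fold differences were called for 1259 lower genes and 0 higher ones. Without XX gonad replicate 1, the counts were 4388 higher (33.7%) and 5515 lower (42.3%) of 13038, 76% in all. Scaling with DESeq2's size factors shifted the fold changes of all genes by a median of -0.13 on the log2 scale and left 2862 higher and 5542 lower, so a gene close to 0 may fall on either side. At a mean of at least 1 CPM (counts scaled to a common library size of 1e+06), 7932 genes were found in gonads and 10856 in whole worms. Of these, 7839 were found in both, 93 in gonads alone and 3017 in whole worms alone.

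**Figure D1:**
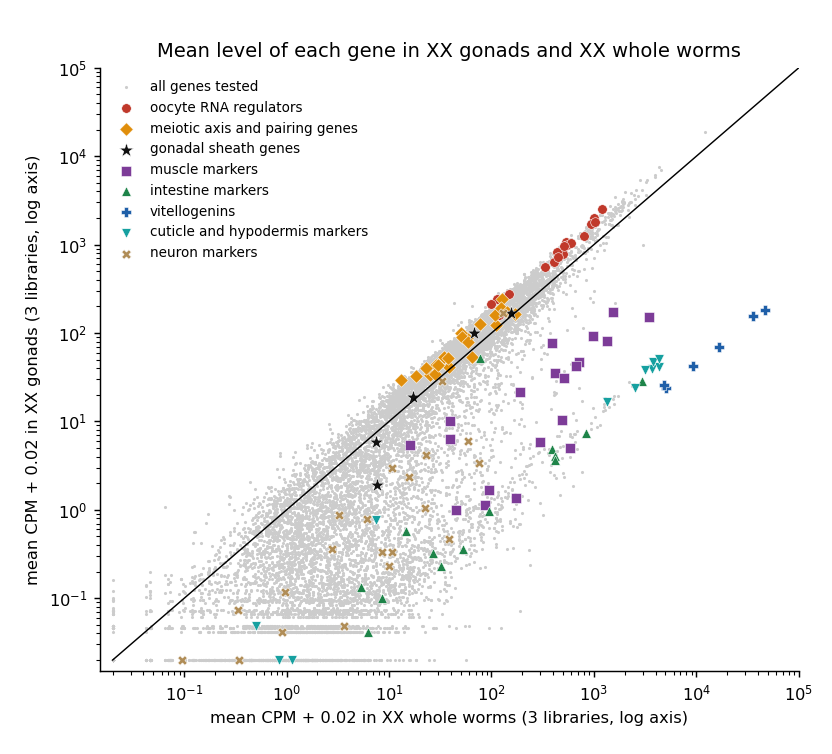
Mean level of each tested gene in 3 XX whole-worm libraries (x axis) and 3 XX gonad libraries (y axis), both as CPM plus an offset of 0.02 on log axes, with 8 gene lists marked and the line of equal level. Oocyte RNA regulators lie just above the line, while vitellogenins, intestine, cuticle and most muscle markers lie far below it.

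The tissue labels were checked against markers. Body markers were low but not all at 0 in the gonad libraries: intestine markers summed to 0.00868% to 0.0123% of gonad counts against 0.496% to 0.524% in whole worms. Cuticle markers summed to 0.0151% to 0.0329% against 2.03% to 2.44%, and muscle markers to 0.0702% to 0.0866% against 1.02% to 1.23%. Among defining genes, the intestine regulator elt-2 had 1 read in all 3 gonad libraries together against 249 in whole worms, while the muscle regulator hlh-1 had no read in any of the 6 and so checks nothing here. Germline markers were abundant in both groups. In bulk RNA, fewer cells of a type and less RNA per cell cannot be told apart.

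Messenger RNAs for the RNA-binding proteins that oocytes use were higher in gonads without exception. All 18 oocyte RNA regulators passed the test, beside 28.5% of all genes in that direction, and their median log2 fold change was 0.85 against -0.32 for all genes. The puf-5 transcript, which encodes a Pumilio-family repressor of maternal messages, had 2268, 2030 and 1749 CPM in gonads and 1033, 973 and 980 CPM in whole worms. Each gonad library exceeded every whole-worm library, and the log2 fold change was 1.02 ± 0.10 (SE, n = 3 per group; adjusted p = 1.53e-06). Its relatives puf-6 and puf-7 differed by 1.10 ± 0.09 and 1.12 ± 0.09. The KH-domain regulator mex-3 differed by 0.79 ± 0.07, with 967 to 1106 CPM in gonads and 593 to 617 CPM in whole worms. The smallest difference of the list was that of etr-1, 0.42 ± 0.08. Together these 18 genes made up 1.76% ± 0.164 (SD, n = 3) of gonad counts and 0.925% ± 0.0517 of whole-worm counts.

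Genes of the oocyte surface and eggshell behaved alike with exceptions. Of 16, 12 were higher, 1 was lower and 3 did not pass, and the median was 0.79. Over all genes 28.5% were higher and 42.4% lower. The yolk receptor gene rme-2, chosen after its values were seen, had 2446, 2164 and 1925 CPM in gonads against 1185, 1210 and 1211 CPM in whole worms, a difference of 0.86 ± 0.10 (adjusted p = 8.7e-06). The eggshell chondroitin proteoglycan genes cpg-1 and cpg-2 reached 5433 and 5355 CPM in gonads on average. The pseudo-phosphatase genes egg-4 and egg-5, which act when the oocyte becomes an embryo, differed by 1.10 ± 0.09 and 1.05 ± 0.10. The caveolin gene cav-1 was the lower member, at -0.53 ± 0.17 (adjusted p = 0.015), a call lost without XX gonad replicate 3, without XX whole-worm replicate 1 and within the 6 XX libraries. The 3 that did not pass were the chitin synthase gene chs-1 and the permeability barrier genes perm-2 and perm-4. In chs-1 the gonad libraries held 294, 951 and 1020 CPM and whole worms 639 to 660 CPM, and without XX gonad replicate 1 it was higher by 0.60 (adjusted p = 4.67e-06). Transcripts of perm-2 and perm-4 differed by 0.12 ± 0.30 and 0.36 ± 0.38.

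The innexins, subunits of gap junctions, included genes that were higher and genes that were lower. Of 19 tested, 4 were higher and 8 lower, no larger shares than the 28.5% and 42.4% of all genes. The 4 higher ones were inx-14, inx-21 and inx-22, which germ cells use, and inx-8, which the sheath uses to couple to them. For inx-22, gonads held 237, 222 and 200 CPM and whole worms 111, 106 and 112 CPM, with no overlap and a difference of 1.00 ± 0.09 (adjusted p = 6.43e-07). The values for inx-14 and inx-21 were 0.88 ± 0.09 and 0.94 ± 0.11. In contrast, inx-16, an intestinal subunit, had 0.46, 0.0631 and 0 CPM in gonads and 20.4, 22.1 and 25.4 CPM in whole worms.

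Germ plasm genes, which build the granules of the germ lineage, were higher for 11 of 12 members, with a median of 0.67. The helicase gene glh-1 differed by 0.90 ± 0.08, the granule scaffold genes pgl-1 and pgl-3 by 0.80 ± 0.09 and 0.86 ± 0.09, and the translational repressor gene nos-2 by 0.95 ± 0.11. The member that did not pass was meg-3, and without XX gonad replicate 1 it was higher by 0.43, so that all 12 passed. Argonautes of the germline small RNA pathways followed. The Piwi gene prg-1 differed by 0.79 ± 0.08, the nuclear Argonaute gene hrde-1 by 0.82 ± 0.09 and wago-4 by 1.00 ± 0.09. Over the 18 small RNA genes, 8 were higher and 0 lower, beside 28.5% and 42.4% of all genes. Without replicate 1, 15 were higher, beside 33.7% of all genes.

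Stem cell and meiotic genes were higher as well, with more calls when XX gonad replicate 1 was left out. Of 10 stem cell and meiotic entry genes, 7 were higher, and 10 without XX gonad replicate 1. Over all genes 28.5% were higher, and 33.7% without that library. The translational repressor gene gld-1 had 1665, 1657 and 1485 CPM in gonads and 916, 915 and 896 CPM in whole worms, and the 2 groups did not overlap. Its log2 fold change was 0.82 ± 0.07 (adjusted p = 6.6e-07). The Pumilio gene fbf-1 differed by 1.02 ± 0.10. Its partners in stem cell maintenance lst-1 and sygl-1, whose transcripts come from the distal end of the gonad, differed by 0.74 ± 0.09 and 0.93 ± 0.10. The Notch receptor gene glp-1, the receptor for the niche signal, read 65.3, 463 and 437 CPM in gonads and 338 to 368 CPM in whole worms. It did not pass with all libraries, at -0.14 ± 0.54 (adjusted p = 0.844), and was higher by 0.36 without replicate 1 (adjusted p = 0.00495).

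Among 22 genes of the meiotic axis, homologue pairing and the synaptonemal complex, 16 were higher and 0 lower, with 21 higher without replicate 1. Over all tested genes 28.5% were higher, and 33.7% without replicate 1. The kinase gene chk-2, which starts pairing and break formation, had the largest difference among them, 1.16 ± 0.12, at 27.6 to 30.4 CPM in gonads. The axis gene htp-1 and the polo-like kinase gene plk-2 differed by 0.98 ± 0.11 and 0.93 ± 0.10. For double-strand breaks and crossovers, 7 of 16 were higher, among them dsb-1 and dsb-2, which license breaks, and the recombinase gene rad-51. Leaving out replicate 1 gave 14 of 16, and scaling with DESeq2's size factors gave 5. Of 20 replication and mitosis genes 16 were higher, including the kinase genes air-1, plk-1 and cdk-1 at 1.01 ± 0.10, 0.95 ± 0.08 and 0.84 ± 0.08, and the sliding clamp gene pcn-1 at 0.88 ± 0.10. Chromatin regulators gave 4 higher of 13, close to the 28.5% of all genes, and 9 without replicate 1. Genes of germ cell death and corpse removal gave 7 of 12, with the caspase gene ced-3 at 0.69 ± 0.08 and the engulfment gene ced-2 at 0.84 ± 0.11.

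**Figure D2:**
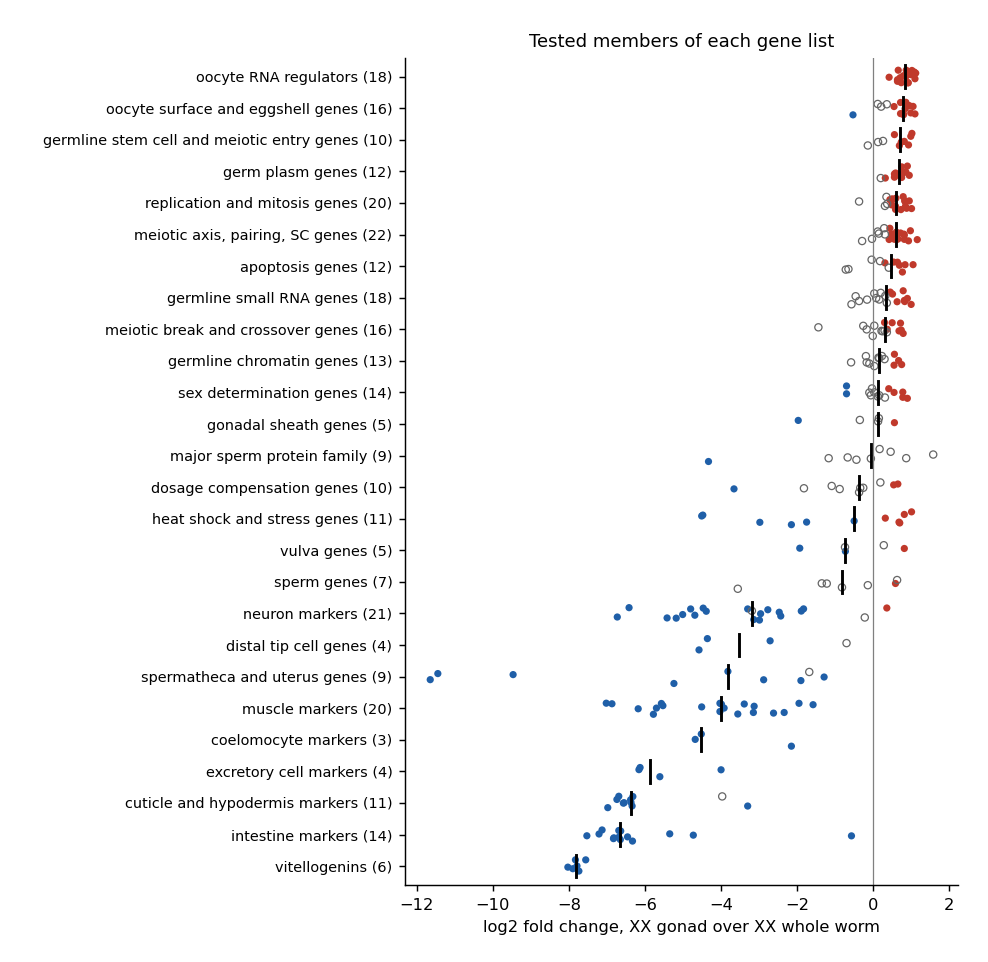
The log2 fold change of XX gonad over XX whole worm (x axis) for each tested member of the gene lists with at least 3 tested members, whose number stands in brackets. Filled red points were higher and filled blue points lower at an adjusted p of 0.05, open points did not pass, and a black bar is the list's median. Germline lists end near 1 on the right, while body lists reach beyond -6 on the left.

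The mutated gene was transcribed. Transcripts of fog-1 read 38.5, 47.1 and 43.6 CPM in gonads and from 28.1 to 30.3 CPM in whole worms, and were higher in gonads by 0.55 ± 0.08 (adjusted p = 9.24e-05). The counts do not show what product the allele makes. The other sperm-fate gene tested in that pathway, fog-3, did not pass, at -0.10 ± 0.15, while fog-2 and fem-3 were higher by 0.90 ± 0.12 and 0.78 ± 0.12. Over 14 sex determination genes, 5 were higher and 2 lower, beside 28.5% and 42.4% of all genes. Few reads were counted for products of sperm development in either group. The 30 major sperm protein genes summed to 0.000182% ± 0.000158 of gonad counts and 0.000234% ± 0.000183 of whole-worm counts. Reads that mapped to several places were not counted, so the sum of a family of similar genes may read low. Of 14 other sperm genes only 7 could be tested, and spe-44, a transcriptional regulator of spermatogenesis, was the 1 that was higher, at 0.58 ± 0.11 with 27.6 to 32.2 CPM in gonads. Dosage compensation genes gave 2 higher and 1 lower of 10, with a median of -0.36. Without XX gonad replicate 1, whose median deviation over this list was -2.45, they gave 3 higher and 3 lower, with a median of 0.06, and sdc-3 and dpy-27 were then lower, at -1.27 and -0.58. The member that was lower with all libraries was sdc-2, the X-specific recruiter of the complex in XX bodies, with 0.153, 1.89 and 5.95 CPM in gonads and 29.8 to 37.0 CPM in whole worms (-3.66 ± 0.67, adjusted p = 0.000683). The complex's shared subunit gene dpy-30 was higher by 0.65 ± 0.10.

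Yolk protein genes had the lowest median of the gene lists examined, -7.81. All 6 vitellogenins were lower, beside 42.4% of all genes in that direction, with log2 fold changes from -8.03 to -7.56. They made up 10.2%, 12.7% and 10.8% of counts in whole worms and 0.0389%, 0.0571% and 0.0515% in gonads. For vit-6, whole worms held 41011, 56419 and 44348 CPM and gonads 117, 223 and 202 CPM (-8.03 ± 1.15, adjusted p = 0.000157). The groups lay orders of magnitude apart, yet vit-6 and vit-2 still stood at 180 and 156 CPM on average in gonads. The genes vit-1 to vit-5 are near-identical to one another in groups, so their reads may be shared or set aside.

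Other intestinal genes fell with them. All 14 tested intestine markers were lower, beside 42.4% of all genes, with a median of -6.67. The intestinal actin gene act-5 had 5.14, 5.05 and 4.25 CPM in gonads and 371, 400 and 398 CPM in whole worms, without overlap, and differed by -6.33 ± 0.17 (adjusted p = 5.77e-11). The intermediate filament gene ifb-2, the lysozyme gene lys-1 and the metallothionein gene mtl-2 differed by -6.64 ± 0.21, -6.82 ± 0.22 and -6.69 ± 0.23. The smallest difference was that of the sphingosine phosphate lyase gene spl-1, noticed after its values were seen, at -0.57 ± 0.10 with 49.8 to 56.6 CPM in gonads. Digestive enzyme families were lower in full: all 11 tested aspartyl proteases, all 7 cathepsin B-like proteases and all 6 lysozymes, with medians of -6.69, -6.03 and -6.82.

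Skin and nerve genes were also lower for the most part, while 42.4% of all tested genes were lower. Of 11 tested cuticle and hypodermis markers, 10 were lower, and the adult collagen gene col-119 read 56.3, 42.6 and 25.4 CPM in gonads against 3847, 5011 and 3993 CPM in whole worms (-6.69 ± 0.30, adjusted p = 6.06e-09). The adult collagen gene col-19 differed by -6.74 ± 0.28. Of 98 tested members of the collagen family, 71 were lower and 3 higher. Neuron markers were lower for 18 of 21, with a median of -3.19, which is less than the intestine's. The neuropeptide processing genes egl-21 and sbt-1 differed by -3.30 ± 0.13 and -4.39 ± 0.30, the dense-core vesicle gene ida-1 by -6.42 ± 0.33 and the GABA synthesis gene unc-25 by -4.80 ± 0.28. The 1 higher member, the synaptobrevin gene snb-1, differed by 0.36 ± 0.11, with 148 to 194 CPM in gonads, and did not pass under DESeq2's size factors. FMRFamide-like peptides were lower for 30 of 31 genes and other neuropeptide-like genes for 60 of 63. Excretory cell markers were lower for 4 of 4, coelomocyte markers for 3 of 3 and pharyngeal gland markers for both that could be tested.

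Muscle genes were lower to very different degrees. All 20 tested markers passed as lower, beside 42.4% of all genes, and they ranged from -7.02 to -1.58 with a median of -4.01. The giant muscle kinase gene ttn-1 stood at one end, with 0.46, 1.26 and 2.3 CPM in gonads and 130, 184 and 202 CPM in whole worms. The paramyosin gene unc-15 held 86.7, 86.4 and 73.1 CPM in gonads and 1198, 1511 and 1309 CPM in whole worms (-4.03 ± 0.18, adjusted p = 2.03e-09). The tropomyosin gene lev-11, the myosin light chain gene mlc-2 and the troponin I gene unc-27 differed by -3.39 ± 0.15, -4.03 ± 0.18 and -3.92 ± 0.16. At the other end were tni-1, a troponin I gene, at -1.58 ± 0.23 and mup-2, a troponin T gene, at -2.34 ± 0.13, both chosen after their values were seen. The mup-2 transcript held 71.6 to 85.8 CPM in gonads and 336 to 447 CPM in whole worms. Tropomyosin and troponin are also used by the ovarian sheath to contract.

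Sheath genes did not follow muscle. Of 5, 1 was higher, 1 lower and 3 did not pass, beside 28.5% higher and 42.4% lower of all genes. The gene tbh-1, which makes octopamine in a pair of neurons and in the sheath, had 164, 170 and 176 CPM in gonads and 141, 171 and 154 CPM in whole worms. The groups overlapped, and the difference was 0.13 ± 0.17 (adjusted p = 0.512). The innexin inx-8 was higher by 0.56 ± 0.18 (adjusted p = 0.0119), a call that was lost under DESeq2's size factors, in DESeq2's test, and without XX gonad replicate 2 or XX whole-worm replicate 3, while its neighbour inx-9 differed by 0.15 ± 0.15. The LIM homeobox gene lim-7 differed by -0.35 ± 0.19, which passed as lower under DESeq2's size factors. The POU homeobox gene ceh-18 was lower, with 2.38, 1.89 and 1.45 CPM in gonads and 6.78, 7.37 and 8.46 CPM in whole worms (-1.97 ± 0.26, adjusted p = 2.47e-05). The tyramine synthesis gene tdc-1, listed with the vulva but also used by the sheath, was higher by 0.82 ± 0.09. It held 319 to 396 CPM in gonads and 198 to 203 CPM in whole worms. It was the only higher member of the 5 tested vulva genes, of which 2 were lower and 2 did not pass, with a median of -0.73.

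Genes of the spermatheca and uterus were lower in gonads to very different degrees. Of 9 spermatheca and uterus genes, 8 were lower and 0 higher, beside 42.4% and 28.5% of all genes. The uterine secreted protein gene ule-1 had 0.46, 0.189 and 0.34 CPM in gonads and 241, 244 and 218 CPM in whole worms, without overlap. For ule-2, 1 read was counted in the 3 gonad libraries and 3725 in whole worms, a ratio of 3855 with a 95% counting interval from 691 to 152306. For ule-4 the reads were 2 and 7475 and the ratio 3868, from 1070 to 31945. In contrast ule-3 and ule-5, chosen after their values were seen, were still abundant in gonads. The ule-3 transcript held 128 to 255 CPM in gonads against 602 to 622 CPM and did not pass (-1.68 ± 0.75, adjusted p = 0.0705), but was lower without XX gonad replicate 1 (adjusted p = 0.0227). The ule-5 transcript held 71.1 to 130 CPM in gonads against 355 to 380 CPM (-1.90 ± 0.66, adjusted p = 0.0263), a call lost without any 1 of the whole-worm libraries or without gonad replicate 2 or 3. The regulator fos-1 of the anchor cell and uterus was lower, at -2.88 ± 0.27. Of 4 tested distal tip cell genes, 3 were lower and 0 higher, with a median of -3.54. Among the lower ones was mig-6, a papilin of the extracellular matrix that other tissues make too, at -4.36 ± 0.14. The niche ligand gene lag-2 had 1.79 to 1.99 CPM in gonads and 2.53 to 3.97 CPM in whole worms and did not pass (-0.70 ± 0.30, adjusted p = 0.0509), but passed under DESeq2's size factors.

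**Figure D3:**
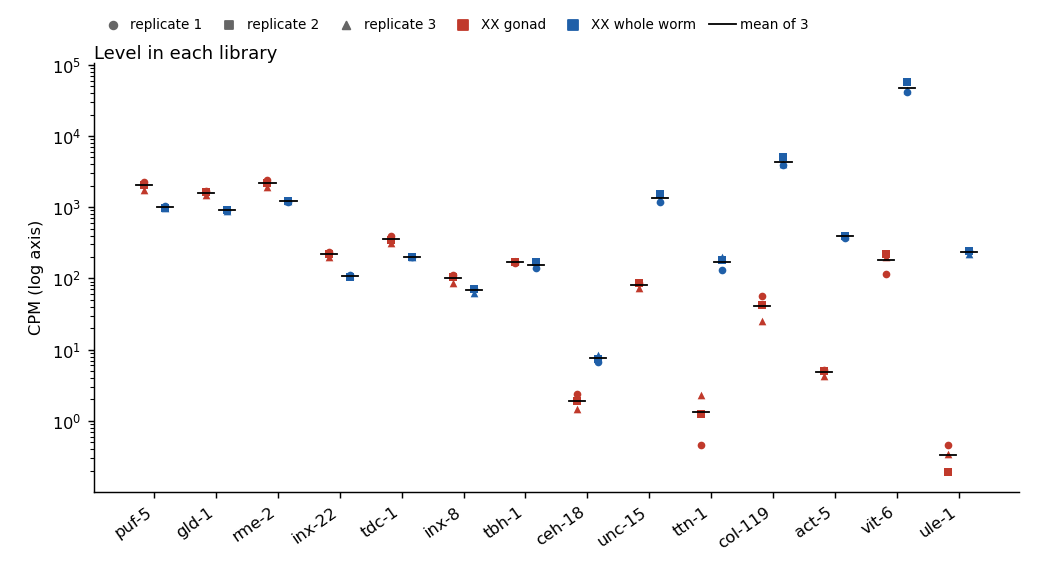
CPM on a log axis of 14 genes in each of the 3 XX gonad and 3 XX whole-worm libraries, with black bars for means. The first 6 genes are higher in gonads, tbh-1 overlaps, and the 7 genes to its right are lower in gonads without overlap.

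Translation genes were abundant in both groups, and ribosomal protein genes held a larger share of counts in gonads. Per kilobase of exon, the elongation factor gene eef-1A.1 was the highest in gonads at 12299 CPM per kb, ahead of the small heat shock gene sip-1 at 9645. In whole worms vit-6 led at 9332 CPM per kb, ahead of eef-1A.1 at 7929. Large ribosomal subunit genes summed to 9.88%, 7.22% and 7.48% of counts in gonad replicates 1, 2 and 3, and 5.63% to 5.69% of whole-worm counts. Of 45 tested, 35 were higher and 2 lower, beside 28.5% and 42.4% of all genes. But only 17 were higher under DESeq2's size factors, 23 without XX gonad replicate 1 and 10 within the 6 XX libraries. Small subunit genes gave 22 of 31 higher, and 13, 19 and 5 under those settings. The 2 lower members were paralogues. The gene rpl-11.2 read 92.1 to 126 CPM in gonads and 207, 227 and 232 CPM in whole worms (-0.96 ± 0.13), while rpl-11.1 read 2546, 1894 and 2033 against 1059, 1162 and 1196 CPM (0.92 ± 0.13). The other was rpl-25.1, at -1.39 ± 0.19. Paralogues of this kind can share reads that the counting sets aside.

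Stress genes fell on both sides. Of 11, 5 were higher and 6 lower, beside 28.5% and 42.4% of all genes, with heat shock genes among both. The chaperone genes hsp-1, hsp-6 and hsp-60 differed by 0.82 ± 0.10, 0.70 ± 0.08 and 1.01 ± 0.10, and hsp-1 stood at 6786 to 8720 CPM in gonads. The chaperone genes hsp-3, hsp-16.2, hsp-16.41 and hsp-70 were lower, at -0.50 ± 0.10, -2.15 ± 0.53, -1.75 ± 0.52 and -2.98 ± 0.76. The last 3 of these stood below 10 CPM in every XX library. The detoxification gene gst-4 and the superoxide dismutase gene sod-3 differed by -4.48 ± 0.24 and -4.51 ± 0.29. Detoxification families were lower too, 36 of 41 cytochrome P450 and 48 of 52 UDP-glucuronosyl transferase genes. The cytochrome P450 genes cyp-31A2 and cyp-31A3, which supply lipids of the eggshell's permeability barrier, were 2 of the 3 higher members, at 0.90 ± 0.08 and 0.91 ± 0.08. They are near-identical and their values may share reads. Histone variants moved apart, with the H3.3 gene his-74 higher by 1.14 ± 0.11 and his-71 lower, at -2.39 ± 0.15. The nuclear hormone receptors were lower for 113 of 145 and higher for 8, and the C-type lectins lower for 72 of 123 and higher for 5. The lectin gene clec-88 was higher by 1.03 ± 0.12, with 479 to 595 CPM in gonads. The Skp1-related gene skr-18 was higher by 0.92 ± 0.10. Both, like hsp-1 and the cyp-31A pair, were chosen after their values were seen.

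X-linked genes were low in gonads as a class. Of 1763 tested, 135 (7.66%) were higher and 1188 (67.4%) lower, against 32.1% higher and 38.4% lower of 10586 autosomal genes. Their median log2 fold changes were -2.03 and -0.11. X-linked counts were 2.39%, 2.7% and 2.75% of gonad libraries and 12.4%, 13.9% and 12.8% of whole-worm libraries. The vitellogenin genes vit-1 to vit-5 are X-linked and count in these shares. The per-library median log2 CPM of X-linked minus autosomal genes gives each gene equal weight. It was -2.54, -2.71 and -2.70 in gonads and -1.27, -1.21 and -1.21 in whole worms. Every gonad library lay below every whole-worm library (exact 2-sided permutation p = 0.1, the smallest that 3 against 3 allows). Chromosome V followed X, with 55.1% lower and a median of -1.71, while chromosomes I and III had 39.1% of genes higher each and medians of 0.17 and 0.13. With the tested genes of X cut in order into 3 runs, the middle run of 588 had a median of -2.98, and the first and last runs -1.88 and -1.39.

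One end of X went against the rest. These genes were noticed after their values were seen and are described without a further test. Of the 15 tested genes nearest to the first end of the X sequence in WBcel235, 14 were higher in gonads and 1 lower. Without XX gonad replicate 1, 14 were also higher, and under DESeq2's size factors 13. The ranges of the 2 groups overlapped for CE7X_3.1, Y73B3A.9 and tmed-12. The 15 genes supplied 13 of the 26 X-linked genes that were called and at least 2-fold higher. The next 10 genes held 0 higher and 6 lower. The 15 were cut where the run of rises stopped, so this contrast follows from that choice. In windows of 25 consecutive tested genes, this end had a median of 1.05, while the other windows of the 71 on X lay between -5.22 and -0.08 and the highest of 427 autosomal windows was 0.68. The most abundant of the 15, Y73B3A.1, had 264, 205 and 190 CPM in gonads and 39.3, 43.5 and 45.0 CPM in whole worms, without overlap (2.37 ± 0.21, adjusted p = 9.31e-07). Its neighbours Y73B3A.4, T08D2.6 and chkr-1 differed by 1.74 ± 0.19, 2.25 ± 0.25 and 1.67 ± 0.24. The lower one was the pseudogene CE7X_3.2. The annotation calls 7 of the 15 pseudogenes, so copies that resemble one another may share reads. In XO animals 9 of the 15 were also higher in gonads, with a median of 1.11 against 1.68 in XX, and the difference between the contrasts passed for 2 of the 15.

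**Figure D4:**
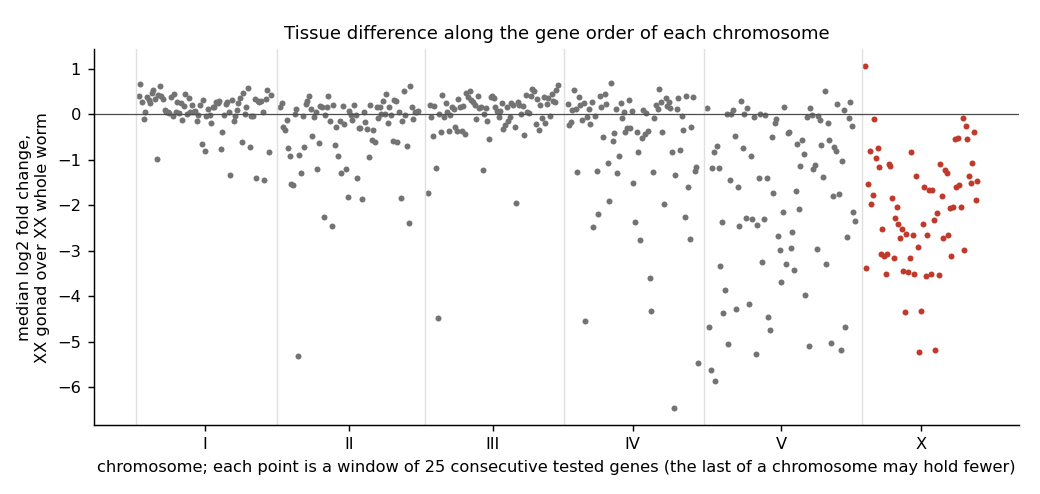
Median log2 fold change of XX gonad over XX whole worm (y axis) in windows of 25 consecutive tested genes along chromosomes I to V (grey) and X (red), in the order of the WBcel235 annotation. The first X window stands at 1.05, while the other X windows lie below 0.

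The 10 largest rises and falls were as follows. Among the 155 genes called, at least 2-fold higher, without overlap and with at least 10 CPM in gonads, 10 were X-linked, and 7 of the 10 largest rises were. X-linked genes were 1763 of the 12528 tested, and 1.47% of them were called and at least 2-fold higher, against 1.89% of autosomal genes. The 7 were Y73B3A.1, Y73B3A.3, Y73B3A.4 and Y73B3A.18 from the end of X chosen after its values were seen, and H11L12.1, F23A7.8 and the gliotactin-like gene glit-1 from elsewhere on X. Transcripts of H11L12.1 held 69.4 to 96.6 CPM in gonads and 23.9, 29.3 and 25.9 CPM in whole worms (1.63 ± 0.15). The others were the S-adenosylmethionine synthetase gene sams-3 on chromosome IV (1.39 ± 0.13), nepr-1 on chromosome I (1.38 ± 0.21) and Y10G11A.90, which matched no annotated gene (1.78 ± 0.34). The 10 largest falls had at most 2 reads in the 3 gonad libraries together. The gene D1086.7 had 0 reads there and 47.2 to 64.7 CPM in whole worms, at least 769-fold lower when the gonad group is set to a floor of 3 counts. The collagen gene col-118 and the astacin protease gene nas-37 were at least 336-fold and 248-fold lower in the same way. For spex-3, 1 gonad read gave a ratio of 5046 with a 95% counting interval from 905 to 199355.

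The same tissue contrast in XO animals was set beside that in XX animals, which differ in karyotype and in the sex of the body together. The difference between the 2 contrasts was tested for all genes, and 1761 (14.1%) were higher in the XX contrast and 371 (2.96%) lower. Of the 1761, 718 are X-linked. Among muscle markers 13 of 20 were higher in the XX contrast, whose median was -4.01 against -6.39 in XO. For mup-2 the difference of contrasts was 3.58 (adjusted p = 1.07e-07). Of sheath genes 4 of 5 were higher. For tbh-1, XO gonads held 0.423 CPM on average and XX gonads 170 CPM. Its contrast was 0.13 in XX and -3.96 in XO, a difference of 4.09 (adjusted p = 1.66e-06). The male gonad has no sheath of this kind, and the part of this in the difference was not tested. The fatty-acid-binding protein gene far-2 read 895 to 1119 CPM in XX gonads and 47.6 CPM on average in XO gonads, with 2835 to 3142 CPM in XX and 2593 CPM on average in XO whole worms, and the contrasts differed by 4.15. In the other direction all 6 vitellogenins were lower in the XX contrast, with differences from -4.57 to -3.94 (adjusted p = 0.0258 to 0.0462). Without XX gonad replicate 1 none of the 6 passed (adjusted p = 0.0754 to 0.132). The whole XO worms held 277 CPM of vit-6 on average, against 47259 CPM in whole XX worms. Of 14 intestine markers 7 were lower in the XX contrast and 0 higher. Oocyte RNA regulators had medians of 0.85 in XX and 0.74 in XO, and 1 of 18, puf-7, differed between the contrasts.

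**Figure D5:**
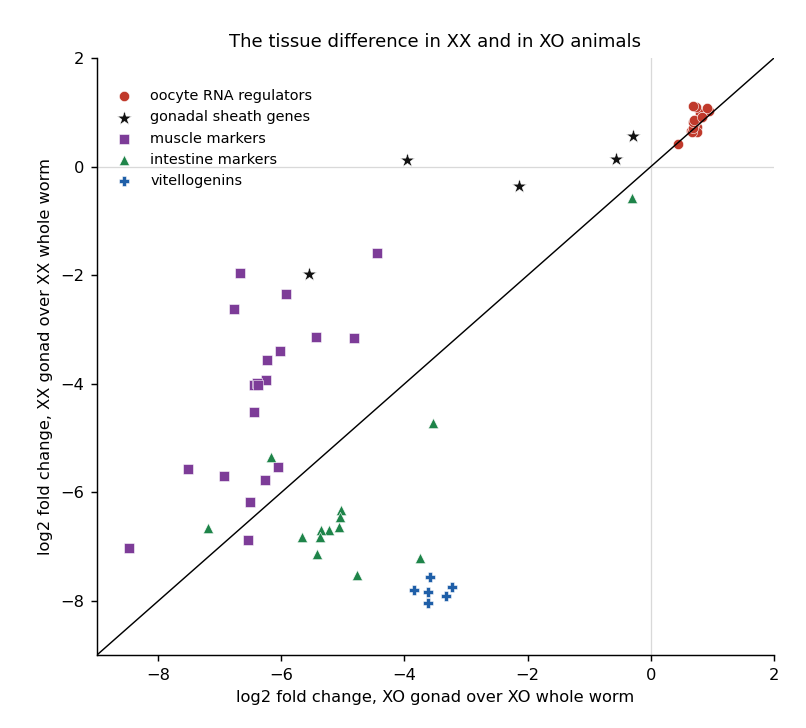
Log2 fold change of gonad over whole worm in XX (y axis) against that in XO (x axis) for members of 5 gene lists, with the line of equal contrast. Oocyte genes lie close to the line near 1, muscle and sheath genes lie mostly above it, and the 6 vitellogenins lie below it.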

How the data were processed

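RNA was selected with oligo(dT) and made into strand-marking libraries, per the labels' protocols. The deposited files hold raw read counts per gene, 1 file for each of 12 libraries. The submitters' processing notes name TopHat2 2.0.12, Cufflinks 2.2.0, HTSeq, CASAVA 1.8 and SAMtools 1.2. Their roles, the genome build and the strand setting of the counting are not given in the sources used here. Each file had 20389 gene rows and 5 summary lines, which were left out of library sizes and tests. WBcel235 gave names, chromosomes, exonic lengths and gene order for 19899 rows and left 490 unmatched.

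Counts were fitted with edgeR 4.0.16 (robust quasi-likelihood, TMM scaling, filterByExpr with a minimum count of 10) in R 4.3.3, with all 12 libraries in 4 groups. P-values were adjusted over all tested genes by Benjamini-Hochberg. CPM use TMM-scaled library sizes. Per-library medians used a pseudocount of 0.5 CPM. Where a group held no read, the fold took that group as 3 counts in total, and intervals at 95% cover counting error only. On simulated counts for 11886 genes of this comparison, the test recovered 73 of 100 genes changed 2-fold and 100 of 100 changed 4-fold, with 4 false calls. The simulation used a single spread for all genes, changed only these genes, as often up as down, and held no library that stood apart. It cannot show the rate of false calls in the real comparison, where most genes were called and large differences were mostly falls.

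Genes were named as the 10 largest changes per direction (called, at least 2-fold, ranges apart, at least 10 CPM), the 10 most abundant per kb in each group, up to 4 members per list by adjusted p with at least 1 CPM, all of lists of 6 or fewer, fog-1, and the 5 largest differences per direction between XX and XO contrasts. Only some are printed. Others were chosen after their values were seen: elt-2, hlh-1, spl-1, snb-1, rme-2, cpg-1, cpg-2, cav-1, chs-1, perm-2, perm-4, the innexins other than the sheath's, glp-1, meg-3, etr-1, fog-3, ttn-1, tni-1, mup-2, ule-3, ule-5, hsp-1, hsp-3, hsp-16.2, hsp-16.41, hsp-70, sdc-3, dpy-27, the cyp-31A pair, clec-88, skr-18 and the genes at the end of X. The members and lists were chosen with earlier results of these data known. Alternatives were DESeq2 1.42.0 as test and as scaling, total counts, no filter, the 6 XX libraries alone, a replicate term and leaving out each library.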

Additional observations from a re-analysis of the deposited data

Results flagged for a closer look

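The change from whole worm to gonad differed between XX and XO animals for 38 of 130 named genes tested, by an interaction term in edgeR's quasi-likelihood fit with Benjamini-Hochberg adjustment over all genes. Over all genes the same test passed for 17% (2132 of 12528). Of the 130, spex-3 was named partly for this difference and others were chosen after their values were seen, so the 2 shares are not comparable. The values below are the XX log2 fold change minus the XO one. Of the 38, 22 were higher in XX, 16 lower, and 16 are X-linked. In XO animals both the karyotype and the sex of the body differ, and these cannot be told apart.

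Muscle and sheath genes were among the higher ones. The difference was 2.42 for unc-15, 2.63 for lev-11, 2.34 for mlc-2, 2.32 for unc-27, 2.87 for tni-1 and 3.58 for mup-2. Among sheath genes it was 4.09 for tbh-1, 1.79 for lim-7, 3.58 for ceh-18 and 0.72 for inx-9. The eggshell genes perm-2 and perm-4 differed by 2.03 and 2.57, and the lipid-binding far-2 by 4.15. Neuron genes gave 1.77 for egl-21, 2.05 for sbt-1 and 0.81 for snb-1. The remaining higher values were 1.77 for rpl-11.2, 1.50 for gst-4, 2.53 for his-71, 2.67 for hsp-3, 1.17 for Y73B3A.3 and 0.43 for puf-7.

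Yolk genes were among the lower ones, at -3.94 for vit-1, -4.21 for vit-2, -4.52 for vit-3, -3.97 for vit-4, -4.57 for vit-5 and -4.41 for vit-6. None of these 6, nor ule-1, passed without XX gonad replicate 1. Intestine genes gave -1.30 for act-5, -1.58 for ifb-2, -1.45 for lys-1 and -1.33 for mtl-2. The remaining lower values were -1.28 for col-19, -0.92 for mig-6, -0.41 for fog-1 and -0.73 for fog-3. The fitted values of ule-1, -6.42, and spex-3, -6.52, rest on 13 reads and 1 read in XX gonads and depend on the fit's prior count.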

How the results depend on the processing

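Counts of genes called higher or lower over all genes stayed within 1.5 times of the main count under every alternative tried, while the X-linked minus autosomal median moved by more than its spread with no filter. Leaving out 1 XX library at a time gave 2883 to 4388 higher and 5258 to 5528 lower genes, DESeq2's test 2833 and 6061 of 18586, and the 6 XX libraries alone 2652 and 4264 of 10872. The X-linked minus autosomal median was -1.92, from -2.02 to -1.85 when a library was left out, and -1.63 with no filter on low counts. The main fit did not pair libraries by replicate number. Same-numbered gonads and worms had deviations correlated by 0.05, 0.06 and 0.01, and the other pairs by -0.07 to 0.02. Values so near 0 cannot decide whether the numbers mark pairs. With a replicate block 3451 genes were higher and 5245 lower.

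Signs turned only for named genes that did not pass. When 1 library was left out, glp-1 ranged from -0.61 (without XX gonad replicate 2) to 0.36 (without replicate 1), chs-1 from -0.11 to 0.60, meg-3 from -0.02 to 0.43 and fog-3 from -0.33 to 0.07. Values for chs-1 were -0.11 without gonad replicate 2 and -0.06 without replicate 3. Within the 6 XX libraries without gonad replicate 1, a setting chosen after seeing the data, perm-2 was -0.05 and glp-1 0.26. The cause was not tested. Of the other values of named genes, 1638 kept direction and call, 23 lost a call and 21 gained one. Counts of list members stayed within 1.5 times of the main count in 1222 cases and moved further in the others. A few medians of the major sperm protein and serpentine receptor lists could not be had because no member was tested.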
